A study of Arabidopsis thaliana with 8 samples.

Results

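GSTU15 (AT1G59670) and GSTU26 (AT1G17190) are genes of the tau class of glutathione transferases, and both had less transcript signal in developing seeds of the Arabidopsis thaliana ttg1 mutant than in the wild type. They are 2 of the 11 genes with a symbol beginning GSTU that have a probe set of 1 gene on the Affymetrix ATH1 array, among 22746 probe sets compared. They were chosen by their lower values in ttg1 than in Ler on these same 8 arrays, so that difference is described here and not tested. The other 9 GSTU genes serve as the background of the family. The remaining 17 of the 28 genes on the tau list were not analysed here.

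Glutathione transferases join the tripeptide glutathione to reactive or foreign molecules, or bind such molecules without changing them. The tau class is specific to plants, large, and arranged in part as tandem gene clusters, and it is best known for detoxification and for transcripts that rise under stress and chemical treatment. A member of a different class, the phi enzyme GSTF12 (TT19), is the one known to be needed for flavonoid pigments to reach the vacuole in the seed coat. TTG1 is a WD40-repeat protein that works with MYB and bHLH transcription factors to turn on seed coat pigment and mucilage genes.

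The mutant group consists of 4 biological replicates labelled ttg1, and the control group of 4 biological replicates of wild-type Landsberg erecta (Ler), with 1 array each. In both groups the seeds had been taken out of the siliques and spanned globular to walking-stick embryos; no treatment is named. The labels do not say which ttg1 allele was used, what the running suffix in both groups' source names stands for, or whether replicates came from separate plants, so p-values cover only the spread among the samples at hand. Whole seeds were profiled, and in such bulk RNA fewer cells of a type and less transcript per cell cannot be told apart.

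Each value is a log2 signal relative to the median of its own probe set over the 8 arrays. Such values show differences between arrays and give no level, so neither the order of abundance of the GSTU genes nor whether any of them is near background can be read from them. The number of arrays limits the precision. TTG1 itself was not analysed here; BAN, the anthocyanidin reductase of the seed coat, served as a check of the labels and was -3.45, -3.39, -3.02 and -3.28 in the 4 ttg1 arrays and 3.13, 3.02, 3.37 and 3.04 in the 4 Ler arrays. Since levels are removed, presence or absence of seed markers could not be checked. Among ttg1 arrays, replicates 1 and 4 stood apart: limma gave them array weights of 0.553 and 0.348, the lowest of the 8, and only replicates 2 and 3 lay close together (SD of their difference over probe sets 0.206, against 0.274 to 0.362 for the other ttg1 pairs).

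GSTU26 showed the wider and steadier fall. Its log2 value was -0.95 in ttg1 replicate 1, -1.05 in replicate 2, -1.06 in replicate 3 and -1.46 in replicate 4. In Ler it was 1.21, 0.95, 0.98 and 1.15 in replicates 1 to 4. All ttg1 arrays lay below all Ler arrays, and the gap from the highest ttg1 value to the lowest Ler value was 1.89, wider than the range inside either genotype (0.51 in ttg1 and 0.26 in Ler). The mean of ttg1 was -1.13 ± 0.22 and that of Ler 1.07 ± 0.13 (SD, n = 4), a log2 difference of -2.20 ± 0.12 (moderated SE), or 4.6-fold less signal in ttg1. Of 22746 probe sets, 59 had a more negative difference.

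GSTU15 differed by less and varied more. Its log2 value was -1.34 in ttg1 replicate 1 and -1.65 in replicate 4, but -0.44 in replicate 2 and -0.38 in replicate 3. In Ler it was 0.66, 0.38, 0.72 and 0.41 in replicates 1 to 4. The ttg1 arrays were again all below the Ler arrays, but they split into a lower and a higher pair, and the gap to Ler of 0.77 was narrower than the ttg1 range of 1.26. The mean of ttg1 was -0.95 ± 0.64 and that of Ler 0.55 ± 0.17 (SD, n = 4), a log2 difference of -1.50 ± 0.26 (moderated SE), or 2.82-fold less signal in ttg1. More negative differences were found for 122 probe sets. For comparison, a difference under -1 was found for 1.26% of all probe sets, and groups without overlap and lower in ttg1 for 8.33%; since the choice of both genes used this contrast, nothing is read from their place among these.

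**Figure D1:**
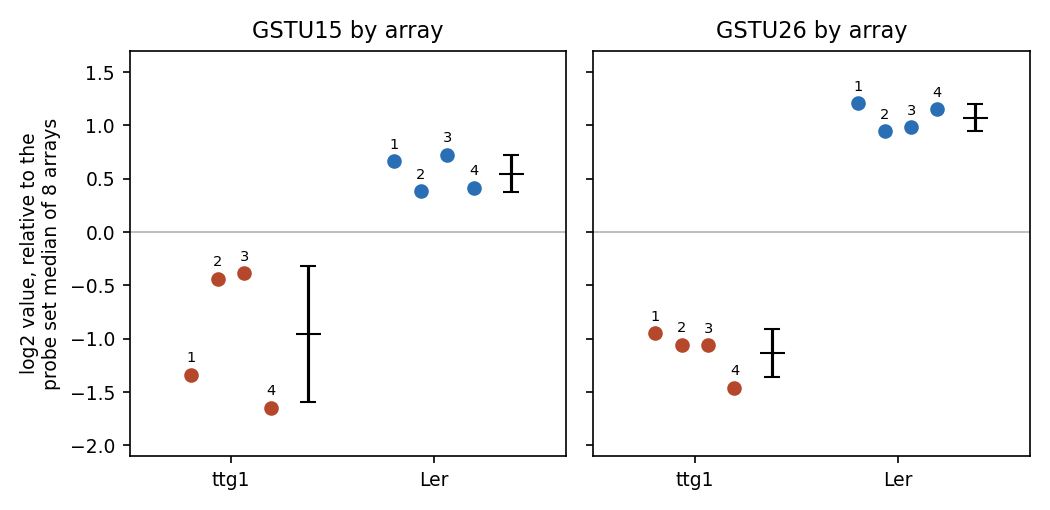
Log2 values of GSTU15 (left) and GSTU26 (right) in each array, numbered by replicate, with the mean and SD of each genotype (n = 4) as a black bar beside the points; the vertical axis is relative to the probe set's median over 8 arrays. GSTU26 forms 2 tight groups, while GSTU15 in ttg1 splits into replicates 1 and 4 (-1.34 and -1.65) and replicates 2 and 3 (-0.44 and -0.38).

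The size of the GSTU15 difference depended on which ttg1 arrays entered it. With ttg1 replicates 1 and 4 both left out, a choice made after seeing the data, the log2 difference was -0.96 ± 0.12 (SE), or 1.94-fold less signal. With replicates 2 and 3 left out instead it was -2.04 ± 0.14, or 4.11-fold less signal. The same omissions left GSTU26 at -2.13 ± 0.10 and -2.28 ± 0.15, so its difference moved little. Both genes had a negative difference in each of the 16 alternative fits. Since the groups of neither gene overlapped, leaving out or reweighting arrays could not reverse that sign. The fits that changed only the variances or blocked on replicate number could not change the differences at all. The shared sign is thus no further support.

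The spread itself was not used in choosing the genes, but it may not be independent of a choice by large differences. The shares of all probe sets given here are descriptions. The SD of GSTU15 among ttg1 arrays, 0.64, was exceeded by 0.734% of all probe sets, where the median SD in ttg1 was 0.165. Among Ler arrays its SD of 0.17 was exceeded by 24.1% of probe sets (median 0.119). GSTU26 was ordinary in both genotypes, with its SD exceeded by 28.2% of probe sets in ttg1 and 45.2% in Ler. The difference in spread between the genotypes was not tested.

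A measure of the arrays moved with that scatter. The array's actin, GAPDH and ubiquitin controls each have a 3' and a 5' probe set. Their mean 3' minus 5' difference, a relative sign of RNA integrity, is higher where the 5' signal is weaker relative to the 3' signal. It was -0.101 and -0.0781 in ttg1 replicates 1 and 4, where GSTU15 was lowest, and -0.00622 and 0.171 in replicates 2 and 3. Over the 8 arrays, with each genotype's mean taken off, GSTU15 correlated with this measure at r = 0.73 and GSTU26 at r = 0.20. Among the other GSTU genes the same correlation was 0.93 for GSTU18, 0.64 for GSTU21, 0.61 for GSTU16 and 0.55 for GSTU28, and between -0.37 and 0.25 for the remaining 5. The measure itself did not separate the genotypes (mean -0.00354, SD 0.123 for the 4 ttg1 arrays; mean -0.0111, SD 0.0132 for the 4 Ler arrays; p = 0.943 by an exact permutation test, two-sided). The measure varied mostly among the ttg1 arrays, so these correlations rest largely on them. Its part in the GSTU15 values was not tested.

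Seed filling was followed through PAP85, a vicilin-like storage protein, and OLEO3, an oleosin of oil bodies, the storage genes measured by name. Their mean was highest in replicate 4 of both genotypes, at 1.43 in ttg1 and 1.38 in Ler, and lowest in replicate 1 of both, at -0.70 and -0.77. Averaged over arrays, this index was 0.179 for ttg1 (SD 0.90, n = 4) and 0.177 for Ler (SD 0.919, n = 4), with p = 1 by an exact permutation test, two-sided, whose smallest possible p is 0.0286. The permutation test took no account of the replicate numbers. GSTU15 was low in ttg1 replicates 1 and 4 alike, the arrays at opposite ends of this index. Its within-genotype correlation with the index was -0.36 over 8 arrays. That of GSTU26 was -0.59; its lowest value was in ttg1 replicate 4, the array with the highest index, but in Ler the array with the highest index had its second highest value.

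**Figure D2:**
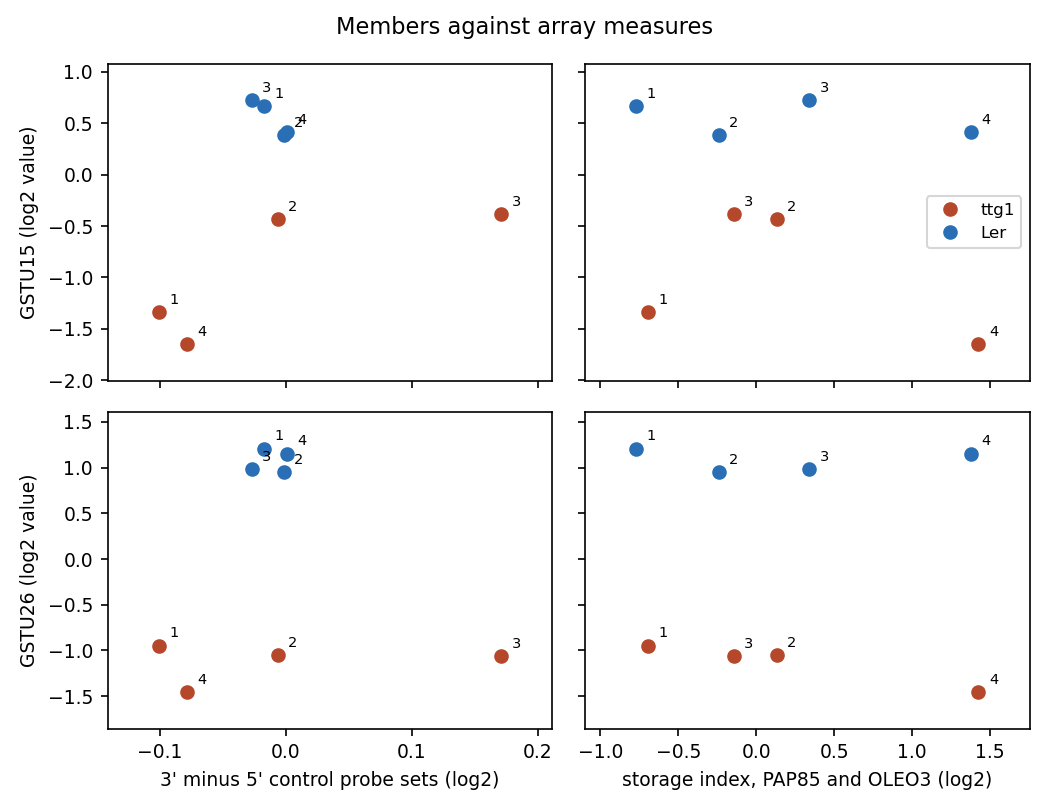
GSTU15 (top) and GSTU26 (bottom) log2 values of the 8 arrays, coloured by genotype and numbered by replicate, against the 3' minus 5' control signal (left) and the mean of PAP85 and OLEO3 (right). In ttg1 the lowest GSTU15 values, -1.34 and -1.65, lie at control values of -0.101 and -0.0781 and at opposite ends of the storage index, -0.70 and 1.43.

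Within the genotypes the pair did not move tightly together. After each genotype's mean was taken off, GSTU15 and GSTU26 correlated at r = 0.48 over 8 arrays, with ttg1 replicate 4 the lowest ttg1 array for both. In ttg1 replicate 1 they parted: GSTU15 lay 0.39 below its group mean, at a deviation of -0.39, while GSTU26 lay 0.18 above. In Ler the gene pair was above its mean in replicate 1 and below it in replicate 2, and opposite in replicates 3 and 4. A within-genotype correlation of at least 0.9 with GSTU15 was found for 232 other probe sets, and with GSTU26 for 141.

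The probe sets that shared the scatter of GSTU15 were more often lower than higher in ttg1. Of the 232, limma called 28 lower (12.1%) and 3 higher (1.29%) at a Benjamini-Hochberg adjusted p under 0.05, against 3.96% lower and 1.76% higher over all probe sets. Of the 141 that shared the scatter of GSTU26, 10 were lower (7.09%) and 0 higher. These sets were formed from the same arrays, so the counts are descriptions with no test, and correlated probe sets are not independent of each other.

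The genes most like each member over the 8 arrays, by Pearson correlation among 13512 other probe sets of 1 gene, formed separate groups. For GSTU15 they were AT4G24130 (r = 0.995), AT2G19970 (0.993), AT2G18740 (0.990), AT5G38195 (0.990) and AT5G12420 (0.989). These also shared its scatter inside the genotypes, with within-genotype r between 0.949 for AT5G12420 and 0.979 for AT4G24130. Their log2 differences ran from -0.67 for AT5G12420 to -1.48 for AT2G19970, close to the -1.50 of GSTU15 only in the latter.

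For GSTU26 the most alike were AT1G28680 (r = 0.995), AT3G49270 (0.994), CHIL (0.994), AT5G60630 (0.994) and AT4G25870 (0.992). CHIL, a chalcone isomerase-like protein of flavonoid synthesis, differed by -1.94 ± 0.11 (log2, moderated SE). AT3G49270 and AT5G60630 had wider differences, at -4.82 and -5.70, and AT4G25870 one of -1.96. Their within-genotype r with GSTU26 was 0.574 for AT4G25870 to 0.804 for AT1G28680, and the correlation over 8 arrays includes the step between the genotypes, which the choice of GSTU26 already used. The list depends on the measure: by Spearman's rank correlation, where 6 genes tied as most alike to GSTU15 and 8 as most alike to GSTU26, none of these 10 was among them. The Spearman correlations were 0.952 to 0.976 for the genes listed for GSTU15 and 0.810 to 0.905 for those of GSTU26. Their ranks ran from 7 to 51 and from 149 to 612. Equal correlations were sometimes ranked apart, so these ranks are approximate.

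None of the other 9 tau class genes passed limma's test at an adjusted p under 0.05, where 5.72% of all probe sets did (3.96% lower and 1.76% higher in ttg1); at an unadjusted p under 0.05 there were 2 of 9, GSTU16 and GSTU27, against 23% of all probe sets. The count at an adjusted p under 0.05 was also 0 of 9 in each of the 16 alternative fits, 1 of which used unmoderated variances. With 9 genes these counts say little. Their median log2 difference was 0.04, against 0.03 over all probe sets, and 3 of 9 differences were below 0, as were 10100 of 22746 over all.

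GSTU16 came nearest to the pattern of GSTU15. The ttg1 arrays, in replicate order, read -0.37, -0.00106, -0.07 and -0.30 on the log2 scale. The Ler arrays read 0.00106, 0.28, 0.06 and 0.04, so the groups lay apart by the narrowest of margins. No overlap with lower values in ttg1 was found for 8.33% of all probe sets. GSTU16 was thus lowest in ttg1 replicates 1 and 4, like GSTU15. Its within-genotype correlation with GSTU15 was 0.63, against -0.07 with GSTU26. The log2 difference was -0.28 ± 0.11 (SE, limma adjusted p = 0.156). It lay between -0.43 and -0.13 over the 16 alternative fits, with a smallest limma adjusted p of 0.0508. Among the other GSTU genes, the within-genotype correlations largest in size were negative, those of GSTU22: -0.80 with GSTU15 and -0.84 with GSTU26.

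**Figure D3:**
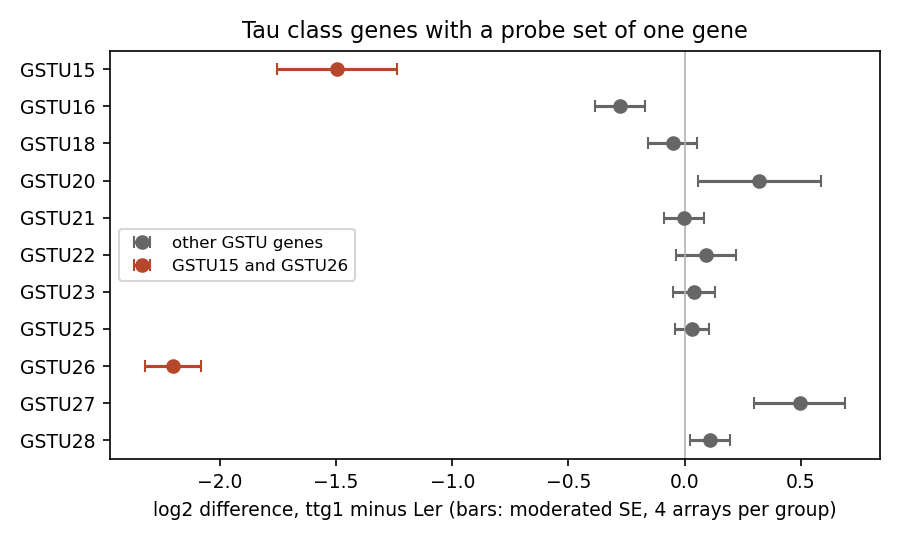
Log2 difference of ttg1 minus Ler for the 11 tau class genes with a probe set of 1 gene, with moderated standard errors (4 arrays per group). GSTU15 is at -1.50 and GSTU26 at -2.20, and the other 9 run from -0.28 (GSTU16) to 0.50 (GSTU27). GSTU15 and GSTU26 were chosen for low values in this contrast, so their distance from the other 9 is no result.

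GSTU27 and GSTU20 had positive differences, where those of GSTU15 and GSTU26 were negative, and both were highest in the arrays with the highest storage index. GSTU27 was 0.25, 0.06, -0.06 and 0.46 in ttg1 and -0.79, -0.55, -0.07 and 0.14 in Ler, a log2 difference of 0.50 ± 0.19 (limma adjusted p = 0.163) with overlapping groups. GSTU20 was -0.36, 0.30, -0.15 and 0.87 in ttg1 and -0.62, -0.36, 0.15 and 0.21 in Ler, a difference of 0.32 ± 0.26 (adjusted p = 0.493). Both were highest in replicate 4 of each genotype. With the genotype means taken off, they correlated with the storage index at 0.94 for GSTU20 and 0.81 for GSTU27 over 8 arrays. The same correlation was 0.60 for GSTU22 and -0.75 for GSTU23, and between -0.12 and 0.08 for the remaining background genes. GSTU20 had the same order as the index in both genotypes; GSTU27 did so in Ler, but in ttg1 its value in replicate 1 (0.25), where the index was lowest, was above those in replicates 2 and 3. The remaining values, of GSTU18, GSTU21, GSTU22, GSTU23, GSTU25 and GSTU28, differed between the genotypes by -0.05, -0.00, 0.09, 0.04, 0.03 and 0.11, with standard errors between 0.07 and 0.13.

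**Figure D4:**
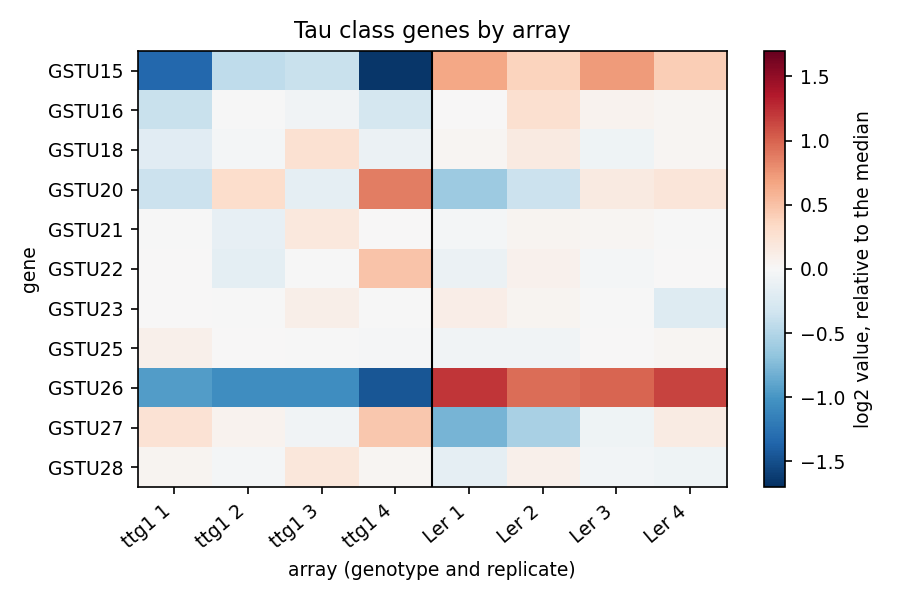
Log2 values of the 11 tau class genes (rows) in the 8 arrays (columns, ttg1 left of the line), coloured from blue (below the probe set's median) to red (above). GSTU15 and GSTU26 change colour at the line between genotypes, whereas GSTU20 and GSTU27 turn red in replicate 4 of both genotypes, weakly in Ler.

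The chromosomal neighbours of both genes were compared, a choice made after seeing the data. In the RefSeq gene order of assembly TAIR10.1 GSTU26 lies directly beside GSTU25, and GSTU24 is the next gene after it, a cluster of tau genes on chromosome 1. GSTU25 was 0.09, 0.01, -0.01 and -0.02 in ttg1 and -0.06, -0.06, 0.01 and 0.04 in Ler, a log2 difference of 0.03 ± 0.07 (limma adjusted p = 0.823). All 8 values lay within 0.09 of the probe set's median. Its level, and with it its distance from background, is unknown.

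GSTU15 lies on the same chromosome with GSTU16 as the fourth protein-coding gene beyond it. Of the 5 protein-coding genes on either side, 7 were measured beside GSTU15 and 5 beside GSTU26, and 0 of them passed limma's test, against 5.72% of all probe sets, with 2 around each at an unadjusted p under 0.05, against 23%. With so few neighbours these counts say little. The log2 differences of the measured neighbours ran from -0.28 to 0.10 around GSTU15, and from 0.01 to 0.26 around GSTU26. Around GSTU26 those at an unadjusted p under 0.05 in limma were FUG1 (0.26 ± 0.10, adjusted p = 0.134) and AT1G17230 (0.25 ± 0.08, adjusted p = 0.120). All 5 measured neighbours of GSTU26 had a difference above 0, as did 55.6% of all probe sets. Those of AT1G17160 (0.01 ± 0.08) and GSTU25 (0.03 ± 0.07) were smaller than their standard errors.

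**Figure D5:**
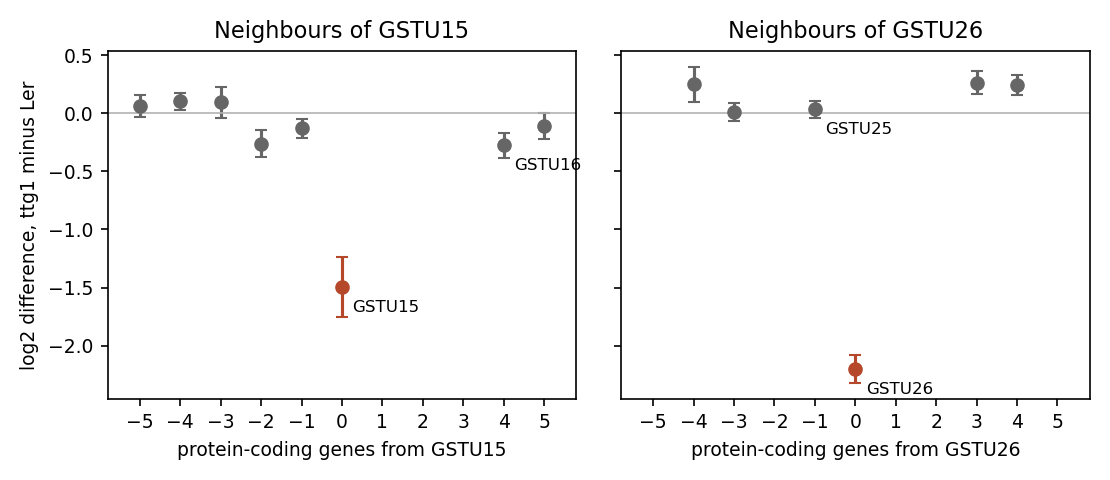
Log2 difference of ttg1 minus Ler, with moderated standard errors, of the protein-coding genes up to 5 places from GSTU15 (left) and GSTU26 (right) in RefSeq gene order; genes with no probe set of 1 gene leave a gap. GSTU15 is at -1.50, GSTU26 at -2.20 and every other point at -0.28 or above. Both genes were chosen for low values in this contrast, so their distance from the other points is no result.

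Other genes of glutathione metabolism were few among the named probe sets. Of 28 genes of the other glutathione transferase classes and related proteins, 3 were measured and 0 passed the test, against 5.72% of all probe sets. With 3 genes this count says little. GSTF13, of the phi class, was 0.15, -0.00, 0.01 and 0.91 in ttg1 and -0.46, -0.32, -0.25 and 0.00 in Ler, a log2 difference of 0.52 ± 0.19 (limma adjusted p = 0.140), with replicate 4 the highest in both genotypes. GSTL3, of the lambda class, was -0.04, -0.07, -0.17 and -0.63 in ttg1 and 0.19, 0.07, 0.14 and 0.04 in Ler. Its difference was -0.34 ± 0.13 (limma adjusted p = 0.142). The groups did not overlap, and 8.33% of all probe sets likewise had no overlap and were lower in ttg1. GSTF4 differed by 0.05.

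None of the few measured genes that supply and recycle glutathione and ascorbate passed, where 5.72% of all probe sets did. With so few genes this says little about the pathway. GR1, a glutathione reductase and the only one of 19 supply genes measured, differed by 0.02 ± 0.12 (log2; limma adjusted p = 0.940). Of 22 peroxidase and ascorbate cycle genes 3 were measured, among them SAPX, an ascorbate peroxidase of the chloroplast stroma, at 0.30 ± 0.11 (adjusted p = 0.145), and MDAR2, a monodehydroascorbate reductase, at -0.16 ± 0.09 (adjusted p = 0.302). At an unadjusted p under 0.05 there were 2 of the 3 other transferase genes, 0 of 1 supply gene and 1 of the 3 peroxidase and ascorbate cycle genes, against 23% of all probe sets.

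Of 25 genes that respond to foreign chemicals, 4 were measured and 0 passed in limma, also at an unadjusted p under 0.05, where 5.72% and 23% of all probe sets did; with 4 genes this count says little. Their median log2 difference was -0.00, with UGT73C1, a glycosyltransferase, at -0.23 ± 0.12 (limma adjusted p = 0.276) and ALDH7B4, an aldehyde dehydrogenase, at 0.11 ± 0.10 (adjusted p = 0.513). Of 20 transporters of glutathione conjugates and flavonoids, 0 were measured by name.

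The genes of a flavonoid list give a scale for the fall of GSTU26. Of 11 listed genes 4 were measured and 3 fell in limma, where 3.96% of all probe sets did. DFR, the dihydroflavonol reductase, had a log2 difference of -6.99 ± 0.14 (adjusted p = 1.53e-10), BAN one of -6.43 ± 0.12 (adjusted p = 8.14e-11) and CHIL one of -1.94 ± 0.11 (adjusted p = 1.89e-06). The fourth, TT15, a sterol glucosyltransferase, had a difference of -0.38 ± 0.10 (adjusted p = 0.0515). The GSTU26 difference of -2.20 is near that of CHIL and far from those of DFR and BAN. Like these 3, GSTU26 had a gap between the genotypes wider than the range inside each. GSTU26 was chosen by this contrast, and the 3 were named for passing it, so nothing is read from this shared trait.

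Markers of the other tissues that a seed sample can hold were few. Of the endosperm list 4 of 14 genes, of the silique wall list 3 of 11 and of the leaf photosynthesis list 2 of 15 were measured, and 0 of them passed limma's threshold with all 8 arrays, against 5.72% of all probe sets. In limma, 1 of 4 endosperm, 2 of 3 silique wall and 0 of 2 leaf genes had an unadjusted p under 0.05. The share over all probe sets was 23%. With so few genes these counts say little. Of the embryo list 0 of 17 were measured. Without ttg1 replicate 3 the endosperm gene AGL96 (adjusted p = 0.0302) and the silique wall gene ALC (adjusted p = 0.0498) passed in limma, and without ttg1 replicates 2 and 3 ALC (adjusted p = 0.0244) and the endosperm gene IKU2 (adjusted p = 0.0468) did. The mean over the silique wall genes ran from -0.202 to 0.201 in ttg1 arrays and from -0.279 to 0.0810 in Ler arrays, and that over the leaf genes from -0.281 to 0.735 and from -0.252 to -0.00461. The endosperm mean ran from -0.173 to 0.131 in ttg1 and from -0.0267 to 0.111 in Ler. The silique wall genes differed in sign, with 1 of the 3 differences below 0. YAB3 was highest in ttg1 replicate 4 (0.98), where GSTU15 and GSTU26 were lowest, and differed by 0.67 ± 0.23 (log2, limma adjusted p = 0.116). Its groups did not overlap, as in 14.8% of all probe sets. ALC was -0.63, -0.17, 0.34 and -0.60 in ttg1 replicates 1 to 4, lowest in replicates 1 and 4 as GSTU15 was, and differed by -0.47 ± 0.21 (adjusted p = 0.215). The part of these tissues in the values of GSTU15 and GSTU26 was not tested.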

How the data were processed

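The deposited log2 values were made by the authors with RMA, per the submitters' processing notes, with no version given. Every row of the deposited log2 values has its median over the arrays at 0, within 5e-07, a centring found from the values. The log2 base and direction were taken from RMA. Because of the centring, where groups do not overlap, the highest value of the lower group and the lowest value of the higher group are equal and opposite. Groups came from the sample titles. Of 22810 probe sets 64 Affymetrix controls were left out. The platform annotation names 1 gene for 13513 of the 22746 tested, several for 503 and none for 8730; 13436 were matched to RefSeq (TAIR10.1) by gene ID, and list symbols through RefSeq symbols and synonyms.

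The difference ttg1 minus Ler was fitted with limma 3.58.1 in R 4.3.3 (lmFit, eBayes, no covariates, two-sided, Benjamini-Hochberg over 22746 probe sets, threshold 0.05). Tested on simulated data with 22746 probe sets, this step called 48 of 50 simulated log2 changes of size 1, 27 of 50 of size 0.5 and 12 of 22546 unchanged probe sets. The simulated noise was normal and independent between probe sets, with the same spread in all arrays. The real arrays had limma weights from 0.348 to 1.84, so these counts need not hold for the real data. Array measures were compared with exact permutation tests over 70 assignments. The genes, lists and tests were chosen with earlier results of these data known. Named genes were all GSTU genes with a probe set, from each list at most 4 genes past the threshold (otherwise the 2 with the smallest adjusted p), and the 5 genes most like each member by Pearson correlation; GSTF4, TT15, the neighbours and the split of ttg1 arrays were added after seeing values. Whether replicate numbers pair the samples was not settled. The same-number correlations of deviations were 0.0769, 0.0318, -0.313 and 0.482 for replicates 1 to 4. The best correlations with another number were 0.138, 0.448, 0.342 and 0.347, so the same number matched best only in replicate 4. The storage index was also lowest in replicate 1 and highest in replicate 4 of both genotypes. The main fit took no account of replicate number. The alternatives were quantile normalization, array median centring, robust eBayes, array weights, unmoderated tests, the replicate block, a threshold of 0.01, omission of each array, and omission of ttg1 arrays in pairs.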

Additional observations from a re-analysis of the deposited data

Results flagged for a closer look

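In 3 of 62 groups of 4 arrays examined, an extreme array lay apart from the other 3, by Dixon's criterion; chance alone flags about 1 in 20 groups. GSTF13 was 0.91 in ttg1 replicate 4, against -0.00 to 0.15 in the other ttg1 arrays. YAB3 was 0.98 in ttg1 replicate 4, against 0.04 to 0.17. UGT73C1 was -0.19 in Ler replicate 4, against 0.16 to 0.23 in the other Ler arrays. Neither GSTU15 nor GSTU26 had such an array in either genotype; the ttg1 values of GSTU15 formed 2 pairs, which this criterion does not detect.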

How the results depend on the processing

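GSTU15 and GSTU26 had less signal in ttg1 under every alternative run. Their groups did not overlap, so leaving out or reweighting arrays could not have reversed this sign. Leaving out each array in turn gave GSTU15 differences from -1.69 to -1.27 and GSTU26 differences from -2.26 to -2.09. With quantile normalization, applied to values that were already centred, the differences were -1.28 for GSTU15 and -1.83 for GSTU26, and omission of ttg1 arrays 1 and 4 or of 2 and 3 gave -0.96 and -2.04 for GSTU15. The calls over all probe sets, 400 higher and 900 lower, were 786 higher with array weights, 687 higher with the replicate block, 700 higher without ttg1 arrays 2 and 3, 168 higher and 409 lower without moderated variances, and 112 higher and 414 lower at a threshold of 0.01. Without 1 array they lay between 164 and 401 higher and between 509 and 854 lower; they fell by over 1.5 times without Ler replicate 1 (233 and 535), 2 (164 and 509) or 3 (190 and 548). With 1 array per genotype and replicate number, the replicate block could not change the GSTU15 and GSTU26 differences of -1.50 and -2.20. Only their standard errors could change, to 0.20 and 0.12 with the block, from 0.26 and 0.12. Whether a shared number marks paired samples is not known. GSTF13 (adjusted p = 0.0298 in limma), YAB3 (0.0227) and LHCB4.1 (0.0366) passed only with this block. Without ttg1 replicate 3 AGL96 (adjusted p = 0.0302 in limma) and ALC (0.0498) passed, and without ttg1 arrays 2 and 3 ALC (0.0244) and IKU2 (0.0468). The storage index difference of 0.00191 ranged from -0.414 to 0.402 without 1 array. Signs of small differences were not settled: GSTU18 was 0.0413 with array weights and 0.0805 without ttg1 arrays 1 and 4 (-0.144 to 0.00737 without 1 array), GSTU21 0.0282 and 0.00719 (-0.0605 to 0.0471), GSTU22 -0.0716 without ttg1 arrays 1 and 4 (-0.0406 to 0.175), GSTU23 -0.0289 to 0.0818 without 1 array, GR1 -0.102 without ttg1 arrays 2 and 3 (-0.0671 to 0.113), RCA -0.0126 to 0.330 without 1 array, OLEO3 -0.0882 with quantile normalization, -0.00187 with array medians set to 0, -0.139 with array weights and -0.0840 without ttg1 arrays 1 and 4 (-0.193 to 0.147), and PAP85 0.32 with quantile normalization and 0.28 without ttg1 arrays 2 and 3 (-0.63 to 0.66). The cause was not tested. Signal over background is unknown in centred values, which limits what a flat probe set such as that of GSTU25 can show.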
